A study of Homo sapiens with 97 samples.

Results

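RNA was tagged inside the mitochondrial matrix of living human cells and read in total RNA libraries, which keep transcripts with and without a poly(A) tail. HEK293T, a human embryonic kidney line, stably expressed APEX2, an engineered peroxidase, fused to a signal that sends it to the matrix (the MITO construct). All cells received biotin-phenol; labelled cells were then given hydrogen peroxide at 1 mM, which lets the enzyme attach biotin to nearby molecules, and unlabelled cells were treated alike without peroxide. Tagged RNA was enriched from both, so the groups share the construct, the biotin-phenol and the enrichment and differ in the peroxide. The members are 4 of the 97 libraries of the series, taken by their labels: 2 labelled and 2 unlabelled total RNA libraries of MITO cells, made by leaving out the poly(A) step of a stranded kit. The poly(A) libraries of the same construct, again 2 labelled and 2 unlabelled, entered the same fit and serve for comparison. The series design calls replicates biological, but the labels do not say whether total RNA and poly(A) libraries came from the same RNA. If they did, the libraries of the fit are not independent, which its p-values take them to be.

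The human mitochondrial genome is a small circle that codes for 2 ribosomal RNAs, 13 messenger RNAs of the respiratory chain and transfer RNAs that lie between them like punctuation. Both of its strands are copied in the matrix into long precursors, from which the RNAs are cut. Most genes are transcribed from the heavy strand; MT-ND6 and 8 transfer RNAs come from the light strand. Nearly all other mitochondrial proteins are made from nuclear transcripts on cytosolic ribosomes and imported, and a few nuclear noncoding RNAs, among them RMRP, have been discussed as visitors to the organelle. The comparison asked which RNAs the matrix peroxidase reached when transcripts without a poly(A) tail are kept.

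Of the transfer RNAs, 8 were called higher in labelled libraries. Their DNA-strand sequences are printed because the highest ratios of labelled to unlabelled counts were among them. The sequences are from the GENCODE 29 transcripts on GRCh38, written 5′ to 3′ with T for U, and capitals mark the anticodon, the bases that read the codon.

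MT-TW, tryptophan, chrM:5512-5579, plus strand: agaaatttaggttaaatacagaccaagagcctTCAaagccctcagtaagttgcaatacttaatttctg
MT-TI, isoleucine, chrM:4263-4331, plus strand: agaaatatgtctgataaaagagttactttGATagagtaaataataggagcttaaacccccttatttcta
MT-TF, phenylalanine, chrM:577-647, plus strand: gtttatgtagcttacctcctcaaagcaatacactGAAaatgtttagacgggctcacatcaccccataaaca
MT-TP, proline, chrM:15956-16023, minus strand: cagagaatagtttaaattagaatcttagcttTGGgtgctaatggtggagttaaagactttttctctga
MT-TS1, serine, chrM:7446-7514, minus strand: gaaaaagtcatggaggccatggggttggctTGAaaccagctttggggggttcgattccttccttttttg
MT-TQ, glutamine, chrM:4329-4400, minus strand: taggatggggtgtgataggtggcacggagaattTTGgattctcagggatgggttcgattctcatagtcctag
MT-TE, glutamate, chrM:14674-14742, minus strand: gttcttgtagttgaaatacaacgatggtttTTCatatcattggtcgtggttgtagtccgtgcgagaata
MT-TA, alanine, chrM:5587-5655, minus strand: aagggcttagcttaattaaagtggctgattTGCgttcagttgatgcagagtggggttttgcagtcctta

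Their genes span 68 to 72 bases. The submitters' extraction notes state that short RNAs were recovered poorly, and mature transfer RNAs cannot be told apart from longer precursors that hold their sequence in these counts. MT-TI and MT-TQ overlap at their ends on opposite strands.

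The depth was 5891425 and 7883579 gene counts in labelled libraries, against 2835969 and 3275931 in unlabelled ones. Counts on nuclear genes numbered 999400 and 2756115 in labelled libraries and 2050648 and 2404680 in unlabelled ones. Labelled 1 stood apart: of 10548 well-expressed genes, 4.26% had no count in it, against 0% in labelled 2, 1.68% in unlabelled 1 and 0.967% in unlabelled 2, and its log CPM correlated at 0.512 and 0.551 with unlabelled 1 and unlabelled 2, where labelled 2 had 0.743 and 0.791. Within groups the correlation was 0.684 for the labelled and 0.698 for the unlabelled libraries. Of the HEK293T genes checked, VIM, LMNB1, MKI67, CDH2 and KRT18 were present in all 4 libraries, while PAX2 and KRT8 each had no count in 2 of them. The 9 genes of other cell types reported here were at 0 in all 4 libraries.

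Mitochondrial RNA made up most of the labelled libraries. Genes of the mitochondrial genome took 83.0% and 65.0% of counts in labelled libraries, against 27.7% and 26.6% in unlabelled libraries. The labelled libraries both lay above the unlabelled ones, with a mean of 74.0% ± 12.7 (SD, n = 2) against 27.1% ± 0.775 (SD, n = 2). The difference of 46.9 percentage points had an exact two-sided permutation p of 0.333, the smallest that 2 libraries against 2 can give. It was 37.9 points without labelled 1 and 55.9 points without labelled 2. Counts are of RNA recovered by the enrichment, so a share or fold change here is not a measure of the RNA level in cells. Where a gene is said to rise or fall, this recovered RNA is meant. These are bulk samples, so differences between cells cannot be seen.

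The make-up of the mitochondrial RNA differed between the groups as well. Ribosomal RNA, the structural core of the mitochondrial ribosome, made up 73.9% and 71.6% of mitochondrial counts in labelled libraries, against 87.4% and 87.6% in unlabelled libraries. Messenger RNA made up 26.0% and 28.3% of mitochondrial counts in labelled libraries, against 12.6% and 12.3% in unlabelled libraries. The light-strand genes held 0.831% and 0.481% in labelled libraries, against 0.107% and 0.05004% in unlabelled libraries. For each of these shares the groups did not overlap; an exact permutation test of 2 libraries against 2 cannot go below 0.333. Within the ribosomal RNA, MT-RNR1 of the small subunit held 25.9% and 23.5% of mitochondrial counts in labelled libraries and 36.1% and 35.8% in unlabelled ones, whereas MT-RNR2 of the large subunit held 48.0% and 48.2% in labelled libraries and 51.3% and 51.8% in unlabelled ones.

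**Figure D1:**
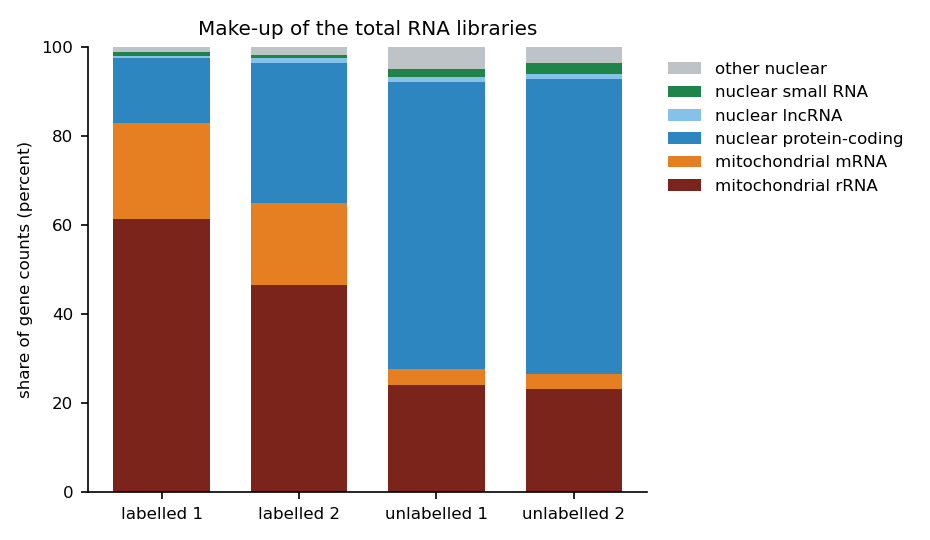
Share of gene counts (percent, vertical axis) by kind of RNA in the 2 labelled and 2 unlabelled total RNA libraries; each stacked bar is 1 library. Mitochondrial rRNA and mRNA together fill most of the labelled bars (83.0% and 65.0% with the tRNAs) and 27.7% and 26.6% of the unlabelled ones.

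Gene by gene, 14911 genes were tested with edgeR's quasi-likelihood test, and a Benjamini-Hochberg adjusted p under 0.05 was called. Called higher were 92 genes (0.617% of those tested) and lower 2 (0.0134%). Before adjustment 1661 of the 14911 had an edgeR p under 0.05, and DESeq2 called 436. The counts by list below are to be read beside these numbers. Levels are scaled CPM (counts per 1000000 of the TMM-scaled library size), which sets the bulk of genes equal between libraries; since most genes are nuclear, a mitochondrial value is relative to nuclear transcripts and the values of 1 library can sum to more than the nominal total. All 27 tested mitochondrial genes had a positive log2 fold change, and 20 of them were called.

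Messenger RNAs of the respiratory chain rose as a group, with 12 of 13 called higher. Both labelled libraries lay above both unlabelled ones for 13 of 13, against 18% of all genes tested. The median log2 fold change was 3.78, against 0.00 over all genes tested. MT-ND6, the complex I subunit coded on the light strand (chrM:14149-14673), had 20809 and 4352 scaled CPM in labelled libraries, against 202 and 89.7 in unlabelled ones. Labelled 1 stood far above labelled 2, and both far above the controls. The log2 fold change was 6.43 ± 0.72 (SE; edgeR adjusted p = 0.00122), with a range of 4.90 to 7.16 when 1 total RNA library was left out. Whether the authors' counting used the strand is not given in the sources used here; without it, reads of MT-ND6 and of the heavy-strand RNA opposite it cannot be told apart, and the same holds for the light-strand transfer RNAs.

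MT-ND5, another complex I subunit, beside MT-ND6 on the opposite strand (chrM:12337-14148), had 208599 and 89352 scaled CPM in labelled libraries and 3548 and 2979 in unlabelled ones. It rose by 5.51 ± 0.70 on the log2 scale (edgeR adjusted p = 0.00292). MT-CO1, the catalytic subunit of complex IV, rose by 4.77 ± 0.70, MT-ND2 of complex I by 4.27 ± 0.59 and MT-CYB, the complex III subunit, by 4.15 ± 0.57 (edgeR adjusted p = 0.00757, 0.00468 and 0.00468). Values at the lower end were 3.02 ± 0.53 for MT-ATP6 and 2.93 ± 0.59 for MT-ATP8, both of the ATP synthase, and 3.00 ± 0.57 for MT-CO2 of complex IV. MT-ND3 of complex I had 2599.8 and 980.5 scaled CPM in labelled libraries and 340.2 and 378 in unlabelled ones. Its log2 fold change of 2.32 ± 0.48 was not called (edgeR adjusted p = 0.0521). DESeq2 and edgeR with no filter on low counts called it, while edgeR scaled on nuclear genes did not. MT-ATP8 and MT-ATP6, and MT-ND4L and MT-ND4, overlap and share an RNA, so their counts are not independent: the paired values were 2.93 and 3.02, and 3.78 and 3.86.

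The 2 ribosomal RNAs had log2 fold changes of 3.14 ± 0.74 for MT-RNR2 and 2.74 ± 0.68 for MT-RNR1, with both labelled libraries above both unlabelled ones, and neither was called (edgeR adjusted p = 0.103 and 0.124). DESeq2 called both, as did edgeR with no filter on low counts and edgeR without labelled 2. Per kilobase of gene length they ranked first and second of 37 genes in the mean of the labelled libraries, at 556173 and 477462 scaled CPM per kb, and MT-RNR2 ranked behind MT-RNR1 in unlabelled libraries, at 62924 and 71672. MT-ND5 ranked 3 by mean level per kilobase in labelled libraries and 8 in unlabelled ones, at 82216 against 1801 scaled CPM per kb. MT-ND6 ranked 10 in labelled and 15 in unlabelled libraries, at 23963 against 278.2.

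The highest ratios of labelled to unlabelled counts were those of transfer RNAs. Over all 22 genes they had 4265 and 2415 counts in labelled libraries, against 29 and 174 in unlabelled ones. Of the 174 counts in unlabelled 2, 106 were on MT-TV, which lies between the ribosomal RNAs and had 6 and 4 counts in labelled libraries. Of the mitochondrial genome's 37 genes, 31 and 32 had a count in labelled libraries, against 19 and 22 in unlabelled ones. Tested were 12 transfer RNAs, of which 8 were called higher and none lower. They were not particular to total RNA: all but MT-TI, 7 of the 8, were called higher in poly(A) RNA as well. There transfer RNAs had 5076 and 6936 counts in labelled libraries, against 1109 and 963 in unlabelled ones. These libraries differed in depth, with 9330259 and 18204413 gene counts in labelled ones, against 51353018 and 76714068 in unlabelled ones. As a share of gene counts, transfer RNAs held 0.0544% and 0.0381% in labelled poly(A) libraries, against 0.00216% and 0.00126% in unlabelled ones.

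Of light-strand transfer RNAs 5 of 6 tested were called. MT-TP, for proline, had 669 and 577 counts in labelled libraries, against 0 and 1 in unlabelled ones, a ratio of scaled rates of 1521 (exact 95% interval 272 to 60110; edgeR adjusted p = 0.000231). MT-TS1, for serine, had 243 and 248 counts in labelled libraries and 0 and 3 in unlabelled ones, a ratio of 199.7 (67.9 to 972; edgeR adjusted p = 0.00122). These intervals cover counting error only. MT-TQ, for glutamine, was the one with enough unlabelled counts for a fitted value: 815 and 598 counts in labelled libraries, 22 and 12 in unlabelled ones, and a log2 fold change of 6.12 ± 0.74 (edgeR adjusted p = 0.00214). MT-TE, for glutamate, with 195 and 66 counts in labelled libraries and none in unlabelled ones, was at least 106-fold higher, and MT-TA, for alanine, with 111 and 49 against none, at least 65.1-fold higher, each against a floor of 3 counts over the unlabelled group. MT-TY, with 74 and 35 counts in labelled libraries and none in unlabelled ones, was not called (edgeR adjusted p = 0.116). DESeq2 called all 6 light-strand transfer RNAs tested.

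Of heavy-strand transfer RNAs 3 of 6 tested were called. MT-TW, for tryptophan, had 1653 and 641 counts in labelled libraries and none in unlabelled ones, at least 933-fold higher (edgeR adjusted p = 0.00175). MT-TI, for isoleucine, had 196 and 19 counts in labelled libraries and none in unlabelled ones, at least 87.5-fold higher. MT-TF, for phenylalanine, had 96 and 39 counts in labelled libraries and none in unlabelled ones, at least 54.9-fold higher (edgeR adjusted p = 0.0367 and 0.0440). Labelled 1 carried these bounds: from labelled 2 alone they were 352-fold for MT-TW, 10.4-fold for MT-TI, 21.4-fold for MT-TF, 36.2-fold for MT-TE and 26.9-fold for MT-TA, and the ratios were 950.3 for MT-TP and 136 for MT-TS1. MT-TT, with 85 and 86 counts in labelled libraries and none in unlabelled ones, was not called (edgeR adjusted p = 0.0526). MT-TM and MT-TS2 had groups that overlapped. DESeq2 called 4 of the 6 heavy-strand transfer RNAs tested. With genes lacking unlabelled counts set at their bounds, the median log2 fold change was 6.42 for the light-strand transfer RNAs tested and 5.95 for the heavy-strand ones. MT-TK, MT-TG, MT-TR and MT-TL2 had no count in any of the 4 libraries, where a count of 0 allows up to 3, and MT-TV, MT-TL1, MT-TN, MT-TC, MT-TD and MT-TH were under the filter on low counts.

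**Figure D2:**
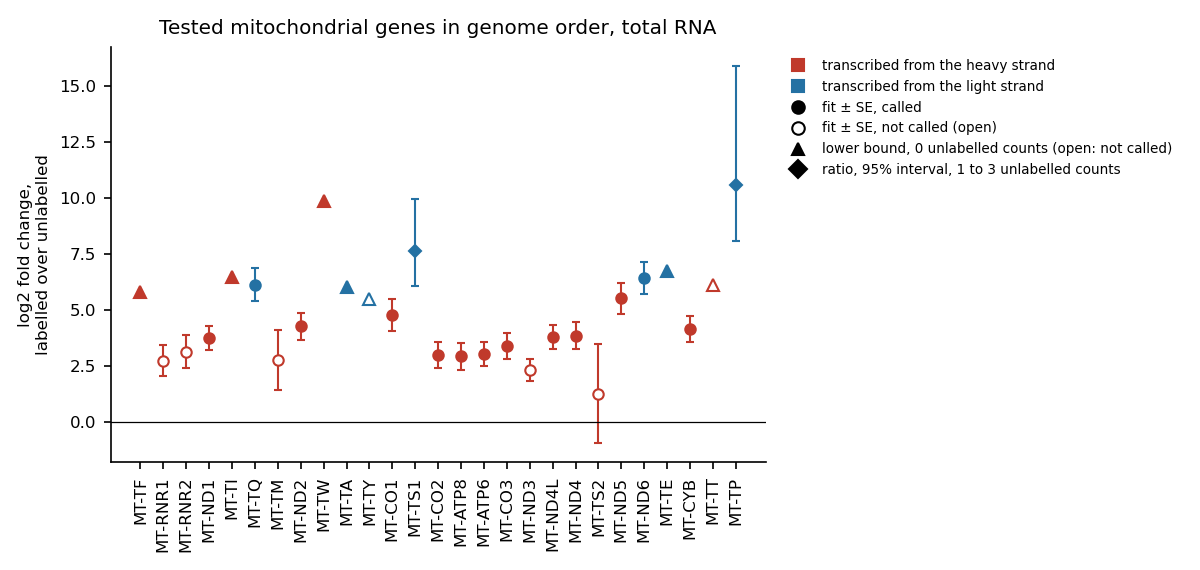
Log2 fold change of labelled over unlabelled total RNA (vertical axis) for the 27 tested mitochondrial genes in genome order (horizontal axis), coloured by the strand they are transcribed from. Circles are fitted values with SE, triangles lower bounds for genes without an unlabelled count and diamonds ratios with 95% intervals for genes with 1 to 3 unlabelled counts; open symbols were not called. Transfer RNAs such as MT-TW and MT-TP and the light-strand MT-ND6 (6.43) stand above the other messenger RNAs, and the ribosomal RNAs (2.74 and 3.14) near the bottom.

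The calls for mitochondrial genes hung on the libraries used. Leaving out labelled 1 left 3 messenger RNAs called higher, leaving out labelled 2 gave 13, and leaving out either unlabelled library left 1. For transfer RNAs these numbers were 3 and 9 for the labelled libraries and 2 and 3 for the unlabelled ones. The median log2 fold change of the 13 messenger RNAs stayed positive, at 2.98 and 4.29 without labelled 1 and labelled 2 and at 3.94 and 3.67 without unlabelled 1 and unlabelled 2. Summed over the mitochondrial genome, counts came to 2.64 times the TMM-scaled library size in labelled 1 and 0.968 times in labelled 2, against 0.194 and 0.186 times in unlabelled libraries, so the labelled libraries differed from each other as well as from the controls. MT-ND6, MT-TP and MT-TS1 were called in all 4 of these fits.

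Among messenger RNAs of the heavy strand, the fold change followed gene length. Over the 12 genes, from 207 to 1812 bases, Spearman's rho between length and log2 fold change was 0.85 and Pearson's r 0.86. In the poly(A) libraries the same 12 genes gave rho 0.71 and r 0.79. Counting the 2 overlapping pairs as the single RNAs they form gave 10 units, with rho 0.88 and r 0.88, and rho 0.96 and r 0.91 in the poly(A) libraries. The longest single genes, MT-ND5 (1812 bases) and MT-CO1 (1542), had 5.51 and 4.77, and MT-ND3 (346) had 2.32. The unit of MT-ND4L and MT-ND4 was longer than MT-CO1, at 1668 bases, but its mean was 3.82. That was also below the shorter MT-CYB (1141 bases, 4.15) and MT-ND2 (1042 bases, 4.27). MT-ND4L alone had 297 bases and 3.78. The points share libraries and scaling and are not independent, so this is a description. MT-ND6, at 525 bases and 6.43, and the ribosomal RNAs, at 954 and 1559 bases with 2.74 and 3.14, lay off this order. The part of length in the fold changes was not tested.

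Nuclear protein-coding transcripts showed a smaller gradient of the same kind. Of those with a mean of at least 5 scaled CPM, cut into 4 bins of like size by exon length, the shortest bin (312 to 3667 bases) had a median log2 fold change of -0.23, the next bins -0.11 and 0.01, and the longest (8070 bases and more) 0.17. In each of the 4 pairings of a labelled with an unlabelled library the median was higher in each longer bin, lying between -0.28 and -0.17 in the shortest and between 0.06 and 0.26 in the longest. In the poly(A) libraries the medians were -0.04, -0.03, 0.01 and 0.05. Called nuclear coding genes had a median exon length of 7088 bases, against 5526 for all tested with a mean of at least 5 scaled CPM, and were also at a higher level, with a median of 91.8 scaled CPM against 26.3.

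**Figure D3:**
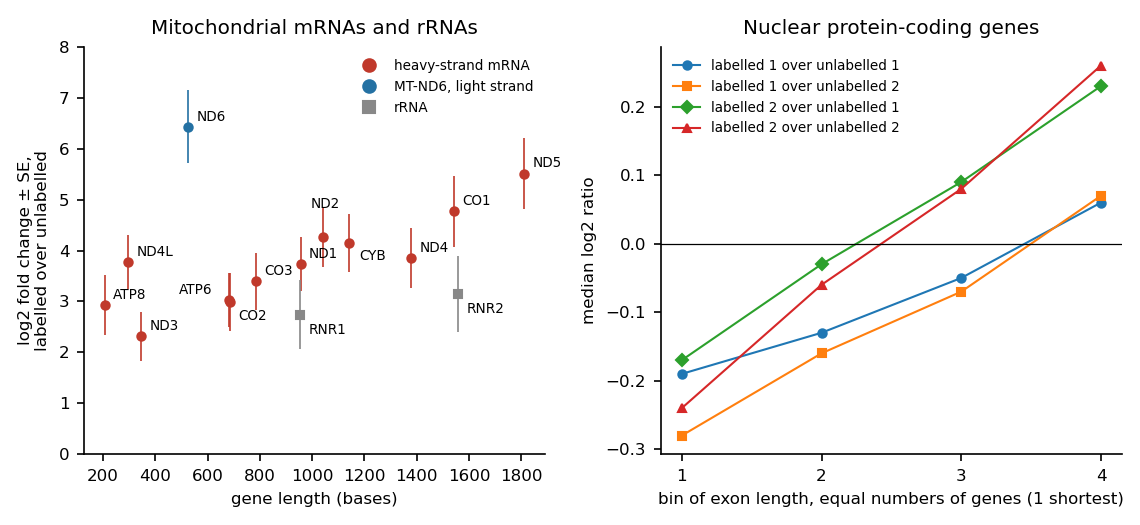
Left, log2 fold change of labelled over unlabelled total RNA with SE against gene length in bases for the 13 mitochondrial messenger RNAs and both ribosomal RNAs; right, median log2 ratio of nuclear protein-coding genes by bin of exon length, a line for each pairing of a labelled with an unlabelled library. Heavy-strand messenger RNAs tend to lie higher with length (MT-ND3 at 2.32, MT-ND5 at 5.51), MT-ND6 stands above them, and all 4 lines on the right rise.

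Of nuclear copies of mitochondrial genes, 4 of 17 tested were called higher and none lower. MTND2P28, a copy of MT-ND2, had 1375 and 437 scaled CPM in labelled libraries, against 46.8 and 50.4 in unlabelled ones, and a log2 fold change of 4.22 ± 0.56 (edgeR adjusted p = 0.00371), beside 4.27 for MT-ND2 itself. MTATP6P1 had 2.68 ± 0.47, beside 3.02 for MT-ATP6, and MTCO1P12 and MTRNR2L8 were also called, at 3.95 ± 0.81 and 4.39 ± 0.87. Reads of a copy and of its near-identical source could be interchanged in counting, so these values are uncertain as statements on nuclear RNA.

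Apart from these copies, 68 nuclear genes were called higher and 2 lower, of which 64 higher and both lower are protein-coding. Alpha tubulins, building blocks of microtubules, stood out by level, and TUBA1B was the most abundant of the 68. It had 6919 and 3624 scaled CPM in labelled libraries, against 774 and 871 in unlabelled ones. TUBA1A had 223 and 179 in labelled libraries and 45.03 and 36.3 in unlabelled ones. The log2 fold changes were 2.68 ± 0.37 for TUBA1B, 2.30 ± 0.26 for TUBA1A and 1.53 ± 0.25 for TUBA1C (edgeR adjusted p = 0.00441, 0.00140 and 0.0156).

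The alpha tubulins are near-identical neighbours on chromosome 12 (TUBA1A at chr12:49184796-49189324, overlapping TUBA1C), so reads could move between them and the pseudogene TUBAP2, at 3.16 ± 0.41. Of the tubulin list, 3 of 15 tested were called higher and none lower, and its median was -0.52. TUBB, the main beta tubulin, had 754 and 623 scaled CPM in labelled libraries, below 944 and 1043 in unlabelled ones, and was not called at -0.53 ± 0.25 (edgeR adjusted p = 0.456). Of the gamma-tubulin ring, which seeds microtubules, TUBGCP4 was called at 1.56 ± 0.30 (edgeR adjusted p = 0.0316) and TUBG1, at 1.16 ± 0.28, was not (edgeR adjusted p = 0.114).

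KIF11, MKI67, SKA3 and BORA, whose proteins act in dividing cells, were each called higher, and no list of such genes was tested. KIF11, the motor that pushes spindle poles apart (chr10:92593286-92655395), had 534 and 455 scaled CPM in labelled libraries, against 115 and 99.1 in unlabelled ones. It rose by 2.21 ± 0.23 on the log2 scale (edgeR adjusted p = 0.00122). MKI67, the proliferation marker that coats mitotic chromosomes, rose by 2.44 ± 0.28, and SKA3, which holds kinetochores to microtubules, by 3.34 ± 0.37, with 97.8 and 64.2 scaled CPM in labelled libraries and 8.41 and 7.48 in unlabelled ones (edgeR adjusted p = 0.00164 and 0.00122). BORA, an activator of the kinase Aurora A, was called at 2.54 ± 0.44 (edgeR adjusted p = 0.0206).

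A few nuclear transcripts of mitochondrial proteins rose. AK4, an adenylate kinase of the matrix, had 286 and 186 scaled CPM in labelled libraries, against 39.3 and 30.3 in unlabelled ones, and rose by 2.76 ± 0.31. MCCC2, which degrades leucine, had 284 and 238 in labelled libraries, against 72.5 and 85.2 in unlabelled ones, and rose by 1.72 ± 0.25. UQCRFS1, the Rieske iron-sulfur subunit of complex III, rose by 1.91 ± 0.34 (edgeR adjusted p = 0.00122, 0.00583 and 0.0226 for the 3 genes).

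AK4 is in none of the lists, and the other two were exceptions in theirs. Matrix enzymes had 1 of 86 tested called higher and none lower, with a median of -0.15, and nuclear subunits of the respiratory chain 1 of 77 and none, with a median of -0.30. In these lists 16 and 18 genes had an unadjusted p under 0.05, and DESeq2 called 4 (3 higher, 1 lower) and 7 (3 higher, 4 lower). Mitochondrial ribosomal proteins had 0 of 78 called by edgeR and a median of -0.29, factors of mitochondrial gene expression 0 of 58 and -0.11, and carriers and import proteins 0 of 67 and -0.25. In the last 3 lists 11, 9 and 8 genes had an unadjusted p under 0.05, and DESeq2 called 3, 3 and 2. DLD, shared by the ketoacid dehydrogenases, at 1.26 ± 0.30, and AASS, of lysine breakdown, at 1.89 ± 0.49, had both labelled libraries above both unlabelled ones and were not called (edgeR adjusted p = 0.108 and 0.149). COX8A, the complex IV subunit, had 157 and 132 scaled CPM in labelled libraries and 85.4 and 55.7 in unlabelled ones, at 1.04 ± 0.27 (edgeR adjusted p = 0.154). DESeq2 called DLD, AASS and COX8A higher. PRELID1, a carrier of phospholipid between the mitochondrial membranes, was one of the 2 genes called lower, with 38.4 and 46.6 scaled CPM in labelled libraries and 124 and 104 in unlabelled ones, and fell by 1.41 ± 0.26 on the log2 scale (edgeR adjusted p = 0.0237). H1FX, a linker histone, was the other and fell by 1.58 ± 0.29 (edgeR adjusted p = 0.0275). With only the 4 total RNA libraries in the fit, neither PRELID1 nor H1FX was called (edgeR adjusted p = 0.137 and 0.169). The log2 fold change of H1FX lay between -1.68 and -1.47 when 1 total RNA library was left out.

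Other genes called higher had no role in mitochondria that the lists cover. The 2 iron regulatory proteins, which bind iron-responsive elements in transcripts, were both called: ACO1, with 327 and 140.5 scaled CPM in labelled libraries and 43.1 and 32.0 in unlabelled ones, rose by 2.63 ± 0.39, and IREB2 by 1.49 ± 0.25 (edgeR adjusted p = 0.00763 and 0.0174). GFI1, a transcriptional repressor, had 100.5 and 61.9 scaled CPM in labelled libraries, against 8.17 and 5.98 in unlabelled ones, and rose by 3.52 ± 0.38. GOLPH3, a Golgi protein that binds phosphoinositide, rose by 2.78 ± 0.30, and BAIAP2L1, which bends membranes with actin, by 3.35 ± 0.37 (edgeR adjusted p = 0.00122 for the 3 genes). Also called were the histone methyltransferase KMT2C, at 2.23 ± 0.28, the histone demethylase KDM5A, at 1.86 ± 0.28, the microRNA processor DROSHA, at 2.05 ± 0.27, and SNU13, a protein of snoRNPs and the spliceosome, at 1.84 ± 0.26. Of the signalling genes, BIRC2, an inhibitor of apoptosis, was called at 3.36 ± 0.46 and GNAI2, a G protein subunit, at 2.76 ± 0.36. AK4, SKA3, BORA, ACO1, IREB2, GFI1, GOLPH3, BAIAP2L1, KMT2C, KDM5A, DROSHA, SNU13, BIRC2, GNAI2, TUBAP2 and TUBGCP4 were chosen after their values were seen.

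Leaving out libraries cut the nuclear calls less evenly than their fold changes. Nuclear genes called higher, copies of mitochondrial genes included, numbered 72 with all libraries; leaving out labelled 1 left 10 and leaving out labelled 2 gave 165, while 21 and 45 were called when unlabelled 1 or unlabelled 2 was left out. Called in all 4 of these fits were 8 nuclear genes: KIF11, TUBA1A, MKI67, SKA3, AK4, GFI1, GOLPH3 and BAIAP2L1. Each of the other nuclear genes lost its call in at least 1 of them. The log2 fold change of KIF11 lay between 2.10 and 2.32 in these fits and that of TUBA1A between 2.14 and 2.47, against 4.90 to 7.16 for MT-ND6.

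**Figure D4:**
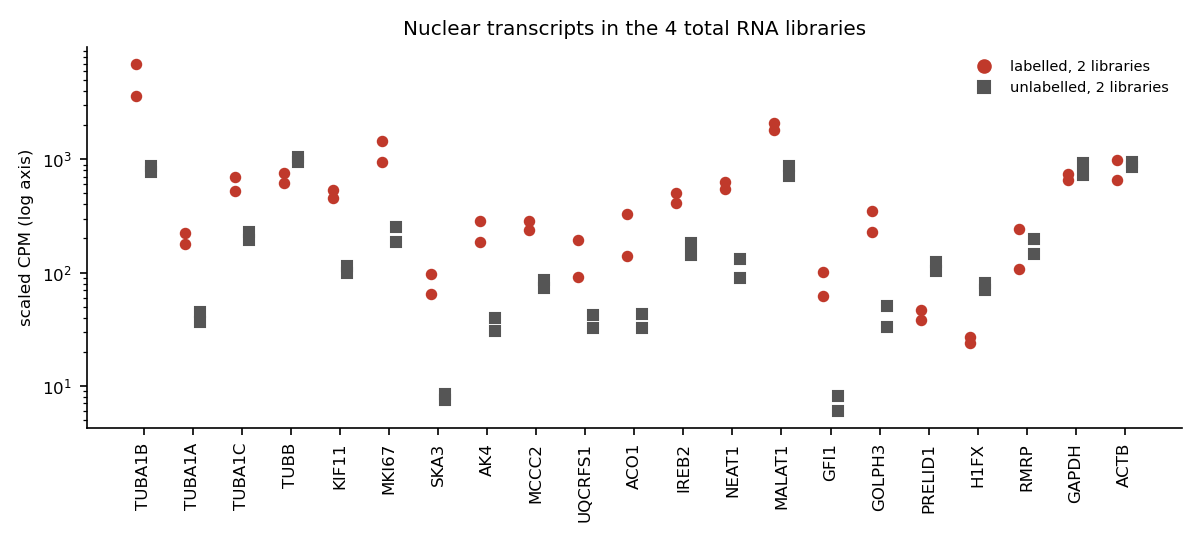
Scaled CPM on a log axis for 21 nuclear transcripts in the 2 labelled (circles) and 2 unlabelled (squares) total RNA libraries. For KIF11, GFI1 and the alpha tubulins both circles lie above both squares, for PRELID1 and H1FX below them, and for RMRP, GAPDH and ACTB the groups overlap.

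Among nuclear lncRNAs edgeR called 1 of 1051 tested, with 89 under 0.05 before adjustment, and DESeq2 called 25, all higher. Over all 14911 genes tested these numbers were 94, 1661 and 436. NEAT1, the scaffold of nuclear paraspeckles (chr11:65422774-65445540), had 631 and 552 scaled CPM in labelled libraries, against 131 and 89.1 in unlabelled ones. It rose by 2.43 ± 0.32 on the log2 scale (edgeR adjusted p = 0.00347), and lost its call without labelled 1 and without unlabelled 2. MALAT1, its neighbour and a speckle RNA, had 2106 and 1811 scaled CPM in labelled libraries and 869.7 and 715 in unlabelled ones, with no overlap, and was not called at 1.31 ± 0.37 (edgeR adjusted p = 0.192), though DESeq2 and edgeR without a filter called it. The list of nuclear lncRNAs had 1 of 17 called, 7 of 17 with both labelled libraries above both unlabelled ones (18% of all genes tested) and a median of 0.30.

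RMRP, the RNA of RNase MRP, had 243 and 108 scaled CPM in labelled libraries, on either side of 147 and 197 in unlabelled ones, and a log2 fold change of 0.02 ± 0.48 (edgeR adjusted p = 0.999). A second RMRP identifier at the same place had no counts, nor did RPPH1 of RNase P, RN7SL1, RNU2-2P and SCARNA2, so for these the 4 libraries give no answer. RN7SL2, an RNA of the signal recognition particle, had 11488 and 3883 scaled CPM in labelled libraries and 2996 and 3778 in unlabelled ones. Its log2 fold change of 1.18 ± 0.41 was not called (edgeR adjusted p = 0.325). It was 0.20 without labelled 1 and 1.76 without labelled 2. RN7SL2 and RN7SL3 are near-identical copies and can share reads.

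Of 126 nuclear small RNAs tested edgeR called 0 and DESeq2 called 0, while 6 had an unadjusted p under 0.05. With no filter on low counts edgeR called RN7SL2, at 1.16, and SCARNA7, at 1.95 (edgeR adjusted p = 0.00235 and 0.000200). By list, with the filter, 0 of 21 C/D snoRNAs, 0 of 39 H/ACA snoRNAs and 0 of 13 Cajal body RNAs were called in either direction. Nor were any of 11 spliceosomal snRNAs, 4 Y and vault RNAs, 2 ribosomal 5S and 5.8S genes and 3 RNase MRP and SRP RNAs. In the order given, the list medians were -0.04, -0.43, 0.33, -0.16, -0.30, -1.22 and 0.64. SNORD3A, the U3 snoRNA, had 1682 and 827 scaled CPM in labelled libraries and 772 and 954 in unlabelled ones, at 0.54 ± 0.38 (edgeR adjusted p = 0.612). SNORA73B had groups that overlapped and -0.48 ± 0.84. The median of the snRNAs was -1.03 without labelled 1 and 0.73 without unlabelled 2. Nuclear small RNA held 0.843% and 0.828% of all counts in labelled libraries, against 1.69% and 2.31% in unlabelled libraries, but over nuclear counts alone it was 4.97% and 2.37% in labelled libraries and 2.34% and 3.15% in unlabelled ones, where the groups overlapped.

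Replication-dependent histone transcripts, which end in a stem-loop and lack a poly(A) tail, are visible in total RNA, and 0 of 44 were called by edgeR or DESeq2, with a median of 0.02 and 0 at an unadjusted p under 0.05. HIST1H4C had 216 and 93.8 scaled CPM in labelled libraries and 101 and 125 in unlabelled ones. Labelled 1 was higher than the other libraries and labelled 2 lower than all.

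Cytosolic ribosomal protein, ER and glycolytic genes had negative medians as lists. Cytosolic ribosomal proteins had 0 of 77 called by edgeR, though 21 had an unadjusted p under 0.05, and DESeq2 called 7 lower. Their median was -0.42, and 47 of 77 had both labelled libraries below both unlabelled ones, against 16.7% of all genes tested; the median was between -0.51 and -0.28 when 1 library was left out. ER and secretory genes had 0 of 38 called by edgeR and a median of -0.15, and glycolytic enzymes 0 of 17 and -0.22, with 5 and 1 at an unadjusted p under 0.05 and 1 and 0 called by DESeq2. GAPDH had 745 and 658 scaled CPM in labelled libraries and 724 and 933 in unlabelled ones, ACTB 996 and 659.7 in labelled libraries and 943 and 848 in unlabelled ones, and neither was called (edgeR adjusted p = 0.769 and 0.908). HSPA5, an ER chaperone, was not called at -0.41 ± 0.24 (edgeR adjusted p = 0.541). The HEK293T genes had a median of -0.52 with MKI67 called.

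Set beside the poly(A) libraries of the same construct, most genes called higher in total RNA were called in poly(A) RNA as well. In the same fit the poly(A) contrast called 149 genes higher (0.999%) and none lower (0%; edgeR, 891 at an unadjusted p under 0.05). Of the 92 genes higher in total RNA, 92 had a positive fold change in poly(A) RNA and 77 were called there. The 77 are 83.7% of the total RNA calls and 51.7% of the poly(A) calls. Among all nuclear protein-coding genes tested, 51.1% had a positive fold change in poly(A) RNA. Both contrasts share 1 fit and its estimates of spread, so the overlap is not that of independent tests. For nuclear genes 58 were called in both, 80.6% of the nuclear total RNA calls and 45.7% of the poly(A) ones. Total RNA and poly(A) libraries have separate controls, but no label says that their cells differed.

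A test of the difference between the labelling effects called 0 of 14911 genes with edgeR (0%) and 6 with DESeq2; unadjusted, 600 had an edgeR p under 0.05. The labelling effect of MT-ND6 was larger in total RNA than in poly(A) RNA by 1.02 ± 0.80 on the log2 scale and that of MT-ND5 by 0.09 ± 0.81. MCCC2 and COX8A had smaller labelling effects in total RNA, 1.72 against 2.77 in poly(A) RNA and 1.04 against 2.21, and NEAT1 a larger one, 2.43 against 1.40. None of these differences was called (edgeR adjusted p = 1.00 for each; before adjustment 0.00875, 0.00863 and 0.0327). The smallest p belonged to HIST2H2BF, a histone gene. In total RNA it had 179 and 85.3 scaled CPM in labelled libraries and 132 and 119.6 in unlabelled ones, while in poly(A) RNA it had 0.527 and 0.462 in labelled libraries and 0 and 0.00689 in unlabelled ones. Its log2 fold change in total RNA was 0.06 ± 0.35, and it was called in poly(A) RNA (edgeR adjusted p = 0.00416), but the difference between the effects was not (edgeR adjusted p = 0.505). SCARNA7 and SCARNA9, RNAs of Cajal bodies, were called higher in poly(A) RNA at levels near the floor: SCARNA7 had 0 and 3.70 scaled CPM in labelled libraries and 0 and 0.00689 in unlabelled ones, so that call rests on 1 labelled library, and SCARNA9 had 0.633 and 0.770 in labelled libraries and 0 and 0.00689 in unlabelled ones. They had 1.97 ± 0.78 and 2.02 ± 0.68 in total RNA, where neither was called (edgeR adjusted p = 0.380 and 0.300).

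**Figure D5:**
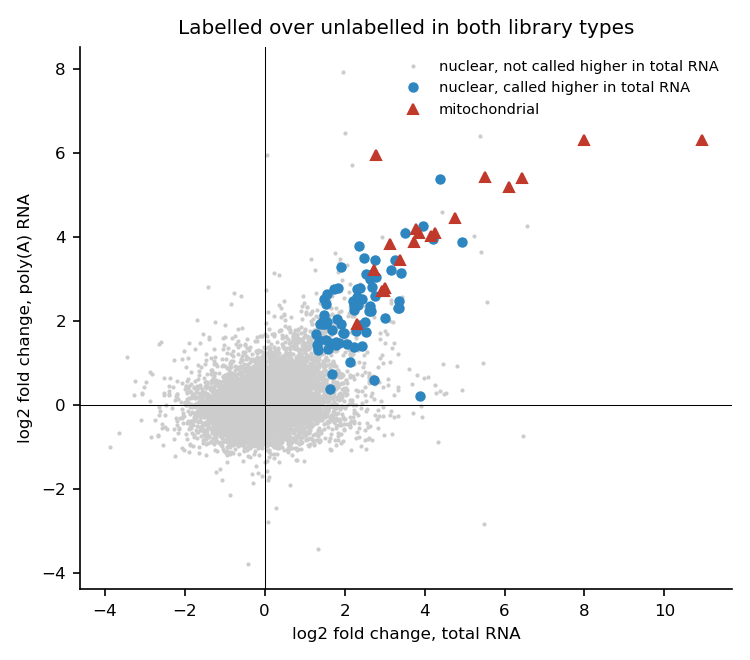
Log2 fold change of labelled over unlabelled in total RNA (horizontal axis) and in poly(A) RNA (vertical axis) for 10466 genes with a mean of at least 5 scaled CPM and a count in each of the 4 groups. Nuclear genes called higher in total RNA and mitochondrial genes lie in the upper right quadrant, positive on both axes.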

How the data were processed

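The authors deposited whole-number read counts per gene for the MITO libraries, with 60675 gene identifiers, of which 57055 took a name, type and position from GENCODE 29. Per the submitters' processing notes, Trimmomatic, STAR, HTSeq, SAMtools and bedtools were used with GRCh38 (hg38); versions, the annotation and the strand setting of the counting are not given in the sources used here. The kit was stranded, per the labels' protocols.

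The 8 total and poly(A) libraries were fitted in 1 model of group means in R 4.3.3 with edgeR 4.0.16 (quasi-likelihood F test with trended dispersion, TMM scaling and filterByExpr at its defaults), with Benjamini-Hochberg adjustment over all genes tested. The poly(A) technical repeat was left out. One gene of other cell types is not reported here. Standard errors were taken from F and the log2 fold change. Genes without an unlabelled count are given as bounds against a floor of 3 counts over the group; intervals and floors cover counting error only. The procedure was tested on counts simulated from the trended dispersion, with no extra spread for any library. That test does not cover calls that hang on a library standing apart, as labelled 1 did.

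Named genes are the largest called changes (up to 15 each way, mean of at least 5 scaled CPM, groups that do not overlap), all mitochondrial genes, landmarks, up to 4 members with the smallest p and any called member of 25 gene lists, and up to 10 genes with the smallest p for a difference between library types; not all are described, and others named were chosen after their values were seen. The comparison, lists and genes were chosen with earlier results of these data known. Other tools were DESeq2 1.42.0, limma 3.58.1, Python 3.11.15, numpy 2.4.6, scipy 1.17.1, pandas 2.3.3 and matplotlib 3.10.9. Alternatives were DESeq2, RLE size factors, scaling on nuclear genes, other filters, only the 4 total RNA libraries, a replicate block, a further minimum of 1 on the log2 fold change, inclusion of the technical repeat, and leaving out each library.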

Additional observations from a re-analysis of the deposited data

Results flagged for a closer look

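The technical repeat of the second labelled poly(A) library, which was left out of the fit and enters only as one of the alternatives, had 61.3% of its counts on mitochondrial genes, against 8.47% and 5.03% in the unlabelled poly(A) libraries. The library that it repeats is in the fit, at 58.8%, so the repeat is not an independent replicate. It is listed because it was left out of the fit.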

How the results depend on the processing

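Of the 94 genes called in total RNA (92 higher, 2 lower), all 94 were also among the 436 that DESeq2 called (360 higher, 76 lower) and the 288 called by edgeR with no filter on low counts (245 and 43). With only the 4 total RNA libraries 50 were called, 48 of them shared; fewer genes and libraries entered that fit. RLE size factors gave 98, scaling on nuclear genes 94, a mean of at least 5 CPM 90, the technical repeat 92, and a further minimum of 1 on the log2 scale 94. Leaving out 1 total RNA library gave 16 to 544 calls: 16 without labelled 1, 544 without labelled 2 (189 higher, 355 lower), 24 without unlabelled 1 and 49 without unlabelled 2, where a lone library was taken to vary like the other groups. The median of all genes moved by 0.14 without labelled 1 and by -0.16 without labelled 2 on the log2 scale. The replicate block gave 131 calls, all 94 among them; same-numbered deviations of the total RNA groups correlated at -0.008, so the numbers were not taken to pair the samples, and those of the poly(A) groups at -0.165, so a block with crossed poly(A) numbers was added after seeing the data and gave 108.

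The difference between total RNA and poly(A) labelling had 0 genes called, 6 by DESeq2, 8 with no filter and 0 to 1 when 1 library was left out. The difference in the mitochondrial share, 46.9 points, was 46.7 on coding, lncRNA and mitochondrial genes only and 37.9 to 55.9 with 1 library left out. Of 975 values for 75 named genes under these alternatives, 812 kept direction and side of the threshold, 139 lost the call and 24 gained it, with no reversal of a call; the cause was not tested. With 0 to 3 unlabelled counts, most called transfer RNAs have only bounds or wide intervals. Labelled 1 had the lowest number of nuclear counts, and the part of depth in these changes was not tested.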
